A study of Mus musculus with 9 samples.

Results

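The arch of the aorta was compared between high dose mice and untreated model mice by RNA sequencing, with 3 libraries a group. A gene was tested when it reached at least 1 FPKM (fragments scaled to gene length and library size) in at least 3 of these 6 libraries, and 12105 of the 21989 genes in the deposited table did. The genes described here are those without overlap, whose 3 high dose values all lay above, or all below, the range of the 3 model values. They were 2718 genes, of which 1326 were higher and 1392 lower in high dose. Genes on marker lists of neighbouring tissues made up 61 of them and are treated apart, which left 1281 higher and 1376 lower genes.

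Both groups were ApoE-/- mice on a high-fat diet for 15 weeks. Such mice lack apolipoprotein E, which clears remnant lipoproteins from blood, and form atherosclerotic plaques in the arch. The high dose group also received ZCL, which the series title names as Ziziphora clinopodioides Lam., a plant of the mint family, by gavage at 5.12 g/kg/day for 15 weeks. The model group carried the same genotype and diet without it. Where control values are shown beside these groups, they come from the 3 libraries of C57BL/6J mice on a standard diet, which differ from both groups in genotype and diet. The labels give no age, sex or time of day at collection. The labels do not say whether each library came from 1 animal, so p-values measure the spread between these libraries, which may be partly technical.

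The wall of the arch is built from smooth muscle cells between sheets of elastic fibre, an inner endothelium and an outer layer of fibroblasts, nerves and fat. In plaque, macrophages take up lipid and become foam cells, and smooth muscle cells lose contractile proteins, divide and lay down matrix. Arterial cells also run a circadian clock, a loop in which CLOCK and BMAL1 drive Per, Cry, Nr1d1 and Dbp, and they answer glucocorticoids and zinc through fixed sets of target genes, the metallothioneins among them.

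The genotype label was checked first. Apoe stood at 18.9, 33.4 and 24.5 FPKM in model and at 30.3, 93.7 and 25.4 in high dose, against 829, 1006 and 339.9 in control, so all 6 libraries lay under every control library. Arch markers were present in all 6: the 39 smooth muscle genes tested included Acta2 at 1857, 812 and 839.7 FPKM in model and 177, 982 and 406 in high dose. Relative depth, from the steps between low FPKM values, lay between 68.6% and 100% of the deepest library among these 6. Between 11748 and 12871 genes reached 1 FPKM in each.

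Neighbouring tissue differed between libraries, mostly within the high dose group for muscle, airway and nerve, and within both groups for fat and red cells. The 65 heart muscle markers listed, of which 46 were tested, summed to between 1256 and 2524 FPKM in model. In high dose they summed to 1638, 27103 and 33611. Myh6, the heavy chain of atrial and adult mouse heart myosin, was at 6.34, 2.89 and 3.802 FPKM in model and 2.18, 634 and 1554 in high dose. Airway markers were high in high dose 2 alone, where Scgb1a1, a club cell secretion, reached 20438 FPKM. The 192 markers found for neurons and catecholamine cells, of which 70 were tested, summed to between 353 and 588 FPKM in model. In high dose they summed to 13839, 2604 and 563. Th, the rate-limiting enzyme of catecholamine synthesis, was listed at 0.323, 0 and 0.644 FPKM in model and 599.8, 15.4 and 1.15 in high dose. Sums are set by a few abundant genes and include markers that were not tested. Over the 70 tested neuron markers the mean of log2(FPKM + 1) was 2.12, 1.60 and 1.71 in model and 5.71, 4.02 and 2.23 in high dose. Of these 70, 25 (35.7%, against 11.0% of all genes) lay above every model value in all 3 high dose libraries. Th and other markers near 0 in model passed the filter only through their high dose values, so this share depends on the filter. Skeletal muscle markers summed to 135, 72.0 and 741 FPKM in model and to 174, 18924 and 1591 in high dose. Schwann cell and myelin markers summed to 181, 232 and 243 FPKM in model and to 999, 1344 and 355 in high dose. By these sums, nerve and Schwann cell markers were high in high dose 1 and 2 and heart markers in high dose 2 and 3. Airway markers were high in high dose 2, and skeletal muscle markers mostly there. By their mean the nerve markers of high dose 3 also lay above every model library. Red cell genes went the other way, with globins at 14.3%, 8.74% and 4.97% of all FPKM in model and 0.668%, 0.569% and 4.60% in high dose. White adipocyte markers summed to 6803, 18643 and 21531 FPKM in model and to 16357, 3713 and 7182 in high dose. Of the 27 tested, 22 had a lower mean in high dose. In whole tissue, fewer cells of a type and less RNA per cell cannot be told apart.

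**Figure D1:**
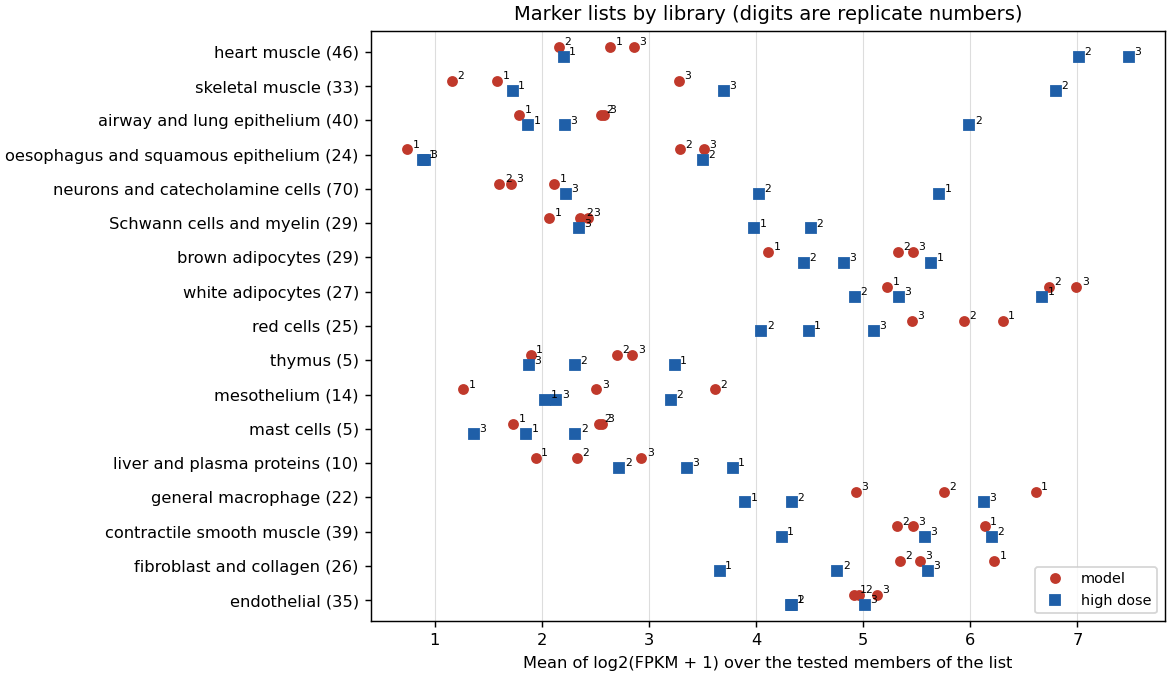
Mean of log2(FPKM + 1) over the tested members of each marker list (x axis; number tested in brackets), 1 point per library, model as circles and high dose as squares, with replicate numbers beside the points. High dose 2 and 3 sit to the right for heart muscle, high dose 2 for airway, and high dose 1 and 2 for neurons and catecholamine cells.

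The 2718 genes without overlap were 22.5% of all genes tested: 11.0% higher and 11.5% lower. A further 15.8% had high dose values on both sides of the model range. Differences are given as high dose minus model of log2(FPKM + 1), where low genes appear to change less than they do, with the standard error of limma, a linear model with a spread shared across genes. The median difference was -0.02 over all genes tested, 0.69 over the higher genes and -0.61 over the lower genes. The gap between the nearest high dose and model values was small for many: 809 genes had a gap under 0.1, and only 74 higher and 18 lower genes had a gap of at least 1. Rhob, a small GTPase, was just inside the rule, at 211, 189 and 185 FPKM in model and 143, 101 and 185 in high dose, where the nearest values differ only beyond the digits given. Nqo1, a quinone reductase, was just outside, at 6.83, 4.75 and 4.55 FPKM in model and 6.79, 34.6 and 11.2 in high dose. The filter behaved likewise at its edge: 519 genes reached 1 FPKM in exactly 3 of the 6 libraries and gave 116 higher and 57 lower genes, while 819 genes that did so in 2 libraries were left out. Some genes named below passed the filter only through the group where they were high. Among the higher genes these include Chrm2, Hamp2, Ogdhl, Extl1, Mt3 and Bdkrb2, and among the lower genes Btc, Aurkb and Htr1b.

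In limma, 1 of 12105 genes passed an adjusted p under 0.05 (0.00826%), and that gene was Chrm2. The next adjusted p was 0.0874. At an unadjusted p under 0.05 there were 1716 genes, 14.2% of those tested, 881 of them higher (7.28%) and 835 lower (6.90%). Apart from Chrm2, then, the genes below stand out by the order of their 6 values and not by an adjusted test, and an exact permutation test of 3 against 3 libraries cannot give a p under 0.1. The number of limma calls rested on single libraries: it was 100 without high dose 1 and 0 without any other 1 of the 6. Those 100 included many heart muscle markers, such as Nppa, Sln, Myh6 and Tnnt2. The treated libraries left there were high dose 2 and 3, where summed heart markers were high.

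**Figure D2:**
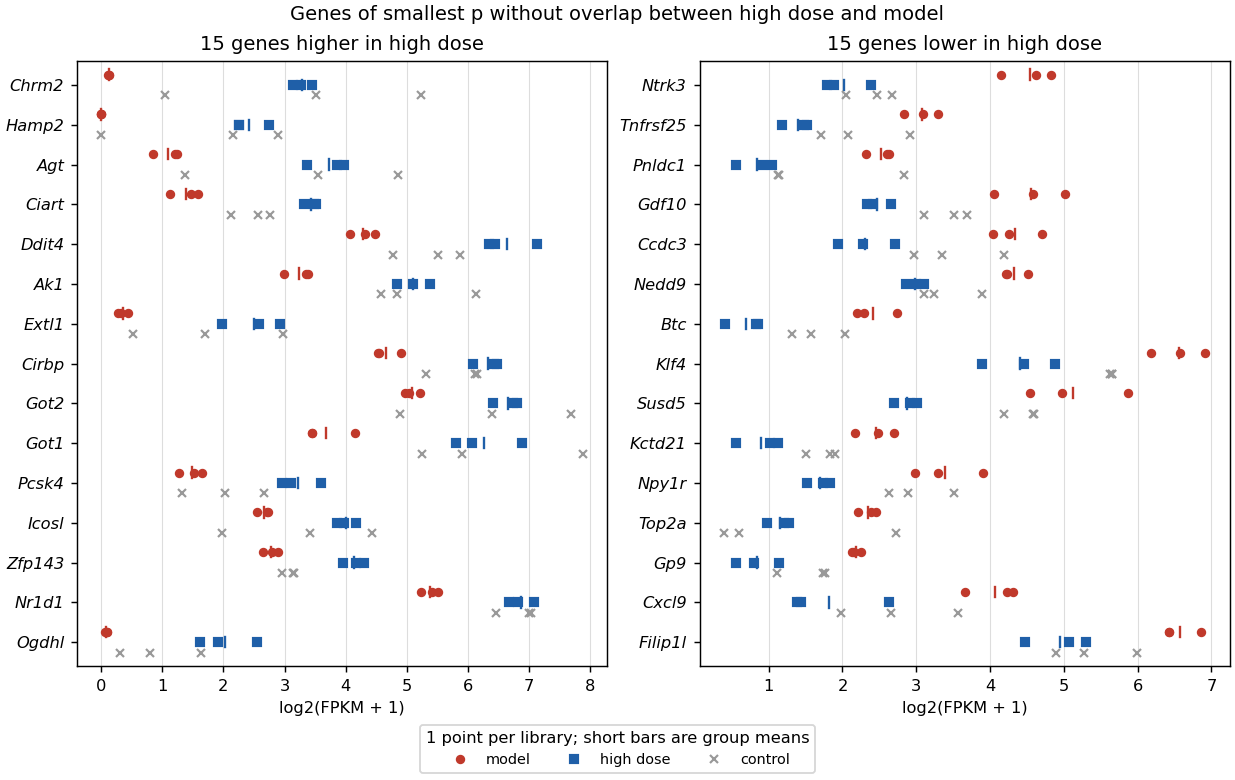
Log2(FPKM + 1) of the 15 higher and 15 lower genes of smallest limma p among genes without overlap outside the neighbouring-tissue lists, 1 point per library; short bars mark the model and high dose means. All 3 squares lie on one side of all 3 circles in each row, and control crosses spread from the model to the high dose level and beyond.

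Chrm2 encodes the M2 muscarinic receptor, through which acetylcholine slows the heart and which parasympathetic nerves and muscle also carry. It rose from 0.0873, 0.0981 and 0.0893 FPKM in model to 9.87, 7.85 and 8.66 in high dose. The gene lies at chr6:36388084-36528414 in GRCm38. Mean FPKM was 96.05-fold higher, and the log2 difference was 3.16 ± 0.19 (limma adjusted p = 0.0148). The 3 high dose values lay within a narrow band, while control was spread widely, at 36.6, 10.4 and 1.06 FPKM. With every model library under 0.1 FPKM, the gene passed the filter through its 3 high dose values alone, and with no filter its adjusted p was 0.137. Summed heart markers were high in high dose 2 and 3. Of the 70 neuron markers that passed the same filter, 25 lay above every model value in all 3 high dose libraries. The part of heart and nerve tissue in the Chrm2 result was not tested. Over the alternatives the adjusted p of Chrm2 ran from 0.00589 without high dose 1 to 0.45 with the replicate number as a block.

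Agt, which encodes angiotensinogen, the precursor of angiotensin, followed Chrm2 and Hamp2 by p among the leading higher genes. Its values were 0.798, 1.31 and 1.38 FPKM in model and 14.6, 9.27 and 13.5 in high dose, a log2 difference of 2.63 ± 0.25. All 3 treated values were over 5 times the highest model value. Control was spread widely, at 28.1, 10.7 and 1.59 FPKM, in the order of the heart marker Myh6. Among treated libraries Agt was highest in high dose 1, where Myh6 was at 2.18 FPKM. Hamp2, a copy of the hepcidin gene that controls iron export, was listed at 0 in all 3 model libraries and at 3.79, 3.79 and 5.698 FPKM in high dose. So Hamp2 passed the filter through its high dose values alone. Its near-identical neighbour Hamp gave 0, 1.48 and 0.506 FPKM in model and 2.33, 114 and 13.1 in high dose. Reads can be split arbitrarily between these copies, and Hamp was also high in control, at 449, 104 and 2.73 FPKM, in the order of the heart marker Myh6 (2729, 807 and 1.85 FPKM). The part of heart muscle in the Agt, Hamp and Hamp2 values was not tested.

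The 15 leading higher genes included the enzymes Got1, Got2, Ak1, Ogdhl and Extl1. Got1 and Got2, the cytosolic and mitochondrial aspartate aminotransferases of the malate-aspartate shuttle, were both higher. Got1 was at 16.8, 9.903 and 9.93 FPKM in model and 66., 55.1 and 117 in high dose (2.57 ± 0.35 on the log2 scale). Got2 was at 36.2, 30.4 and 31.8 FPKM in model and 105, 111 and 83.9 in high dose (1.57 ± 0.21). Ak1, adenylate kinase, which balances ATP, ADP and AMP, was at 9.15, 6.91 and 9.45 FPKM in model and 27.7, 40.6 and 33.3 in high dose. In each of these 3 enzymes the lowest high dose library was at least 2-fold above the highest model library. Ogdhl, a relative of oxoglutarate dehydrogenase, was near 0 in model (0.0723, 0.0671 and 0.0508 FPKM) and at 4.87, 2.77 and 2.06 in high dose. Extl1, a glycosyltransferase of heparan sulphate synthesis, was at 0.214, 0.363 and 0.254 FPKM in model and 4.98, 6.63 and 2.95 in high dose. Both Ogdhl and Extl1 passed the filter through their high dose values alone. For Got1, Got2, Ak1 and Extl1 the highest control library was control 1, which also had the highest Myh6. In high dose 1, where Myh6 was at 2.18 FPKM, these genes were above every model library too. The part of heart muscle in these results was not tested.

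The other leading higher genes were of mixed function. Icosl, the ligand of the T cell costimulator ICOS, was at 5.65, 5.58 and 4.85 FPKM in model and 14.7, 16.9 and 13.5 in high dose. Zfp143, a zinc finger transcription factor, was at 5.26, 6.41 and 5.94 FPKM in model and 18.8, 14.5 and 16.98 in high dose. Pcsk4, a proprotein convertase, was at 1.42, 2.14 and 1.86 FPKM in model and 11.1, 7.63 and 6.79 in high dose. These 3 genes were low in abundance, and in Zfp143 the control libraries (7.81, 7.88 and 6.78 FPKM) stood nearer to model than to high dose.

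The leading lower gene was Ntrk3, which encodes TrkC, the receptor of neurotrophin-3. Its values were 16.8, 27.4 and 23.7 FPKM in model, 2.45, 4.23 and 2.69 in high dose and 3.13, 4.54 and 5.36 in control, so high dose and control lay in 1 low range and all 3 model libraries far above it. The log2 difference from model was -2.52 ± 0.27 (limma adjusted p = 0.124). Its ligand Ntf3 was also lower, at 11.4, 6.41 and 6.81 FPKM in model and 2.33, 3.89 and 4.06 in high dose. The neurotrophin and receptor list gave 1 higher (6.67%) and 4 lower genes (26.7%) of 15 tested, against 11.0% and 11.5% of all genes. Plxnd1, a semaphorin receptor of endothelium, was at 37.4, 34.6 and 28.3 FPKM in model and 20.1, 15.8 and 19.9 in high dose. The higher gene was Gfra1, a receptor for GDNF, at 0.845, 0.652 and 1.14 FPKM in model and 3.64, 4.77 and 3.02 in high dose.

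The other leading lower genes were of mixed function. Gdf10, a ligand of the TGF beta family, was at 22.9, 15.6 and 31.3 FPKM in model and 4.34, 4.04 and 5.305 in high dose (-2.08 ± 0.28). Ccdc3, a secreted protein of endothelium and fat, was at 25.2, 18.2 and 15.4 FPKM in model and 2.83, 3.84 and 5.55 in high dose. Btc, betacellulin, a ligand of the EGF receptor, was at 3.88, 3.604 and 5.696 FPKM in model and 0.8099, 0.768 and 0.328 in high dose. In all 3, each model value was over 2 times each high dose value. Npy1r, the neuropeptide Y receptor by which sympathetic nerves constrict arteries, was at 13.96, 6.92 and 8.84 FPKM in model and 2.57, 1.87 and 2.33 in high dose. Tnfrsf25, the receptor of the cytokine TL1A, was at 7.49, 8.83 and 6.16 FPKM in model and 1.86, 1.79 and 1.27 in high dose. Susd5 was at 57.4, 30.5 and 22.3 FPKM in model and 6.52, 5.502 and 7.02 in high dose, with control between them at 17.3, 23.1 and 22.97. Among proteins of the cell interior, Nedd9, a scaffold at sites of adhesion, was at 17.7, 21.9 and 17.8 FPKM in model and 7.601, 6.95 and 6.29 in high dose. Filip1l was at 115, 84.9 and 84.6 FPKM in model and 21.3, 32.6 and 38.4 in high dose. Pnldc1, an exonuclease that trims piRNAs, and Kctd21 were low throughout, at 3.99, 5.21 and 5.08 and 3.49, 5.51 and 4.61 FPKM in model against 0.477, 1.06 and 0.873 and 1.03, 0.468 and 1.17 in high dose.

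**Figure D3:**
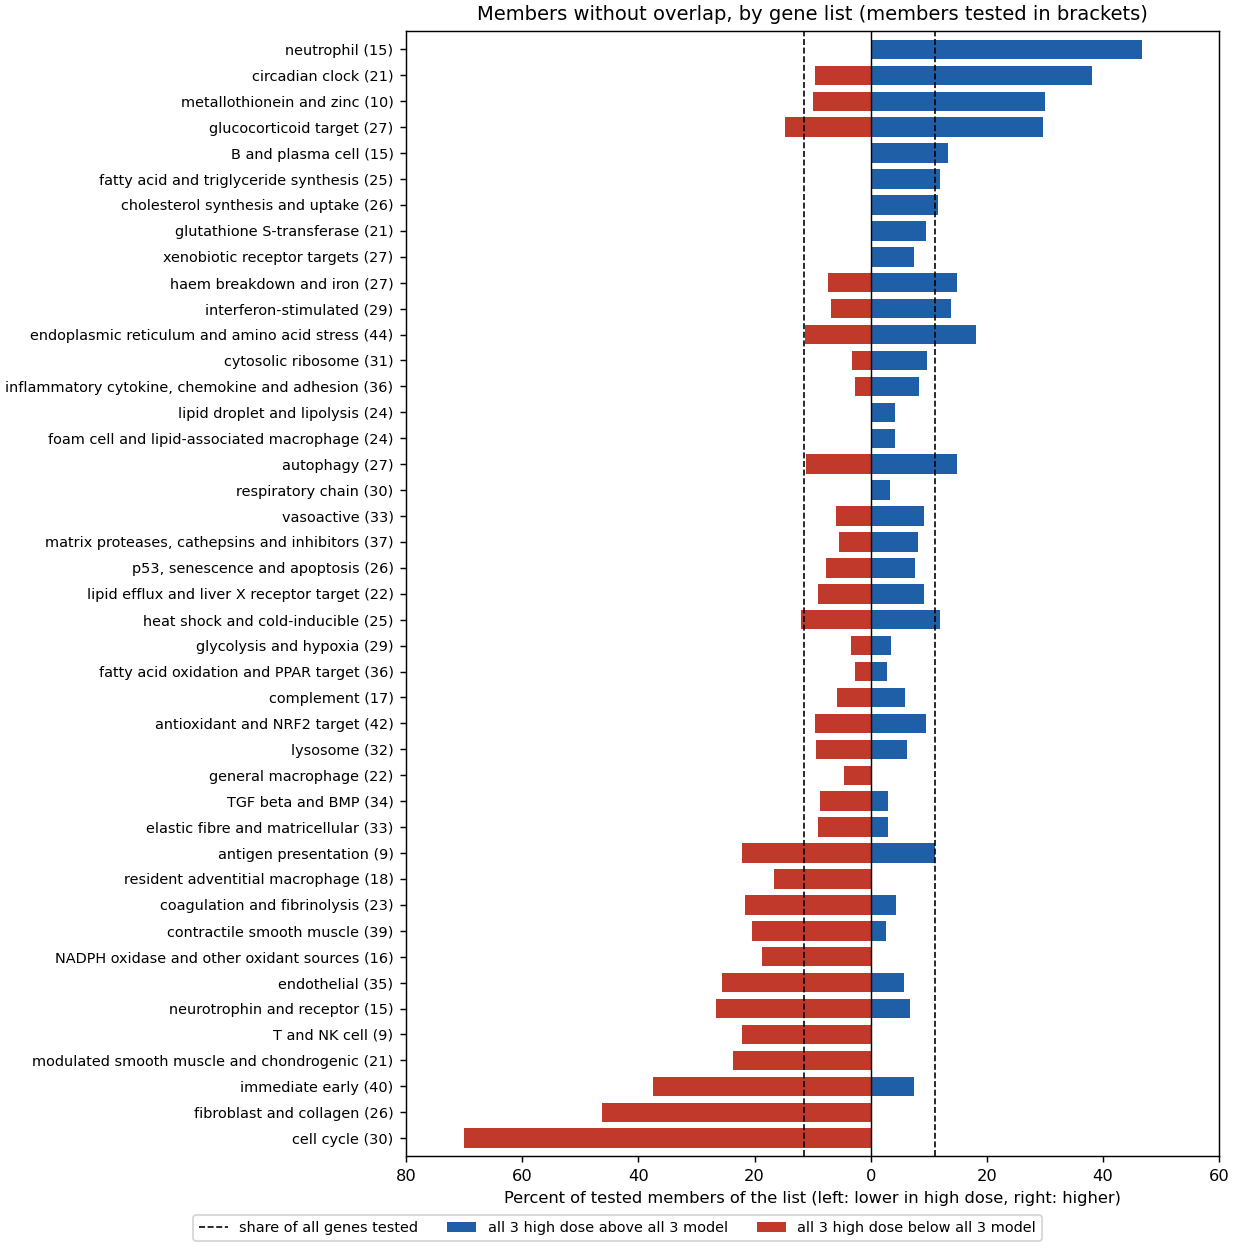
Percent of the tested members of each gene list without overlap (x axis), higher in high dose to the right and lower to the left, with the number tested in brackets; dashed lines mark 11.0% and 11.5%, the shares over all genes tested. The neutrophil, circadian clock, metallothionein and glucocorticoid lists reach farthest to the right, and the cell cycle, fibroblast and immediate early lists farthest to the left.

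The circadian clock genes were higher among the targets of CLOCK and BMAL1, while Clock itself was lower. Of 21 clock genes tested, 8 were higher without overlap (38.1%, against 11.0% of all genes) and 2 were lower (9.52%, against 11.5%). The median difference of the list was 0.46. To show the element through which these targets are read, the promoter windows of 2 of the higher genes are printed from RefSeq (GRCm38.p6), from 250 bases before to 50 after the start. Capitals mark the E-box CACGTG, which reads the same on both strands. Ciart lies on the minus strand, chr3:95882179-95882478, with 3 E-boxes, and Tef on the plus strand, chr15:81802423-81802722, with 1.
Ciart: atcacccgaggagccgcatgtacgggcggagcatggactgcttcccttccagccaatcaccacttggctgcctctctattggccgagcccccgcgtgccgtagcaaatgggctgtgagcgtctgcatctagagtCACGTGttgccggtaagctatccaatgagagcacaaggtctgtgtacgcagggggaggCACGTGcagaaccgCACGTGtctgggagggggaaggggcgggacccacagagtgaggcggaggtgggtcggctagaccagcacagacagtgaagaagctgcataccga
Tef: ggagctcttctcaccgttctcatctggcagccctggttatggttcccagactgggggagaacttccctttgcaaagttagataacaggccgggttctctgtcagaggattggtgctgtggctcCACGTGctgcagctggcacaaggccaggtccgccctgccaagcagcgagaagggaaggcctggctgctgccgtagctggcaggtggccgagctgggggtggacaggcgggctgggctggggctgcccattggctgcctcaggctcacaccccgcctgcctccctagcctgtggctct
Of the 8 higher clock genes 7 had a window, and 3 of these (42.9%) held the E-box, as did 7.15% of all 32851 windows. The windows of Dbp and Nr1d1 held none, which says only that these letters are not in the 300 bases.

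Ciart, a repressor of CLOCK and BMAL1, led the clock genes. It stood at 1.19, 2.02 and 1.76 FPKM in model and 10.4, 9.02 and 10.1 in high dose, a log2 difference of 2.04 ± 0.21 (limma adjusted p = 0.1099). Nr1d1, which encodes the repressor REV-ERB alpha, was at 44.6, 36.6 and 41.5 FPKM in model and 112, 134 and 101 in high dose (1.47 ± 0.21). Dbp, an activator of clock output genes, was at 19.1, 6.48 and 5.57 FPKM in model and 48.7, 81.6 and 74.96 in high dose (2.77 ± 0.47). The lowest high dose value of Dbp was over 2 times the highest model value, and the model libraries themselves differed by over 3-fold. Tef, a relative of Dbp, was at 31.3, 36.6 and 33.7 FPKM in model and 54.8, 49.3 and 52.3 in high dose. The repressors Per1 and Cry2 were also higher: Per1 at 7.53, 13.2 and 16.1 FPKM in model and 27.2, 37.2 and 25.97 in high dose, and Cry2 at 8.04, 7.702 and 7.77 and 18.8, 16.9 and 10.9. Usp2, a deubiquitinase under clock control, was at 1.82, 2.84 and 5.02 FPKM in model and 11.7, 27.2 and 15.1 in high dose. Not all members of this arm separated: Nr1d2 overlapped at 29.8, 31.8 and 27.5 and 36.1, 30.7 and 63.2 FPKM, and Per2 at 13.5, 12.98 and 8.96 and 14.99, 11.2 and 14.7.

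Nfil3 and Clock were lower. Nfil3, the repressor that competes with Dbp for its sites, was at 6.87, 8.47 and 9.35 FPKM in model and 5.24, 3.79 and 5.33 in high dose. Clock was at 8.31, 11.1 and 9.58 FPKM in model and 6.09, 5.09 and 7.24 in high dose. Arntl, which encodes BMAL1, and Npas2, which can stand in for CLOCK, had lower means but overlapped: Arntl at 3.97, 5.34 and 4.21 and 4.05, 3.36 and 3.59 FPKM, and Npas2 at 3.66, 2.24 and 3.05 and 1.64, 2.57 and 1.91. In control, Nr1d1 was at 130.1, 126 and 86.7 FPKM, Dbp at 52.2, 50.2 and 27.4 and Nfil3 at 1.95, 2.94 and 3.05, nearer to high dose than to model in each. The mean of log2(FPKM + 1) over the 21 genes lay between 3.35 and 3.37 in the 3 model libraries and between 3.90 and 3.98 in the 3 high dose libraries. Such genes swing over the day, and whether the groups were collected at the same hour was not tested. Nr1d1, Dbp and Usp2 share exon sequence with genes on the opposite strand (Thra, Sphk2 and Gm49380), and no source used here gives the strand setting. Thra did not separate, at 30.4, 24.4 and 27.5 FPKM in model and 67.98, 35.5 and 23.2 in high dose, and Sphk2 was level, at 9.904, 8.79 and 7.34 and 9.08, 11.8 and 7.45.

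**Figure D4:**
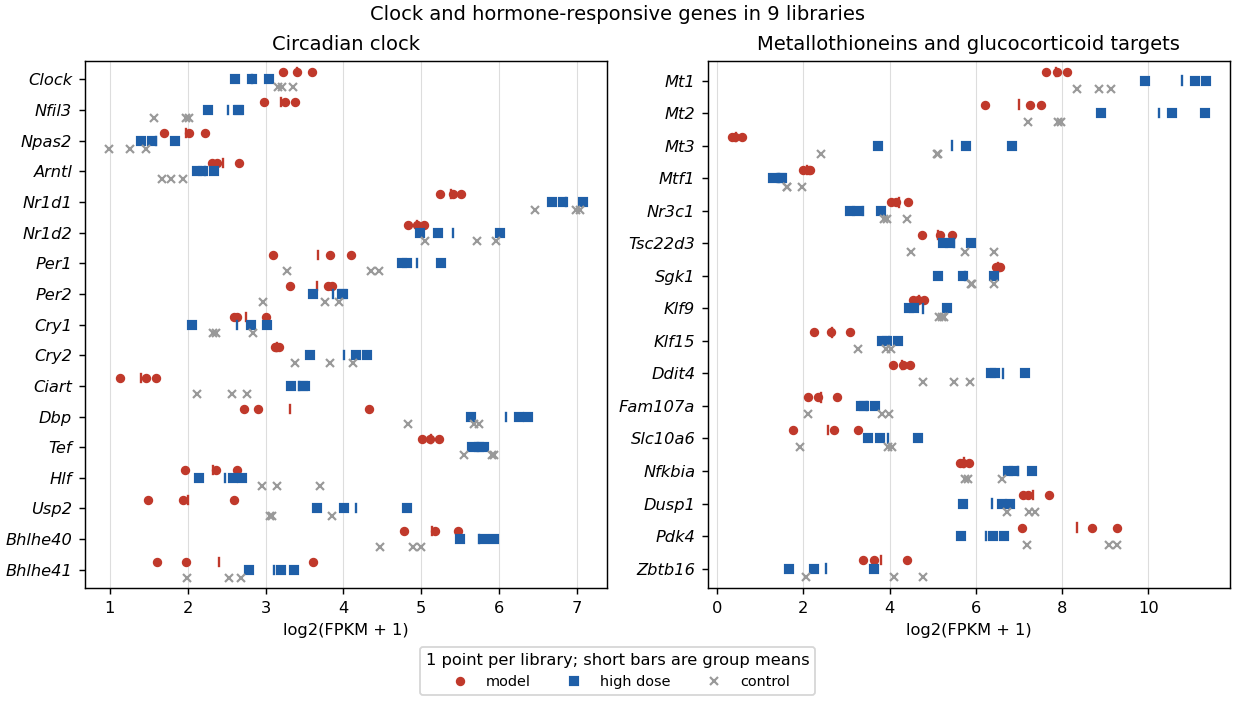
Log2(FPKM + 1) of clock genes (left) and of metallothioneins and selected glucocorticoid targets (right), 1 point per library, control as crosses; short bars mark the model and high dose means. Nr1d1, Ciart and Dbp in high dose lie to the right of all model points, Clock and Nfil3 to the left, and Mt1, Mt2 and Mt3 show the widest separation on the right panel.

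Metallothioneins, small proteins that bind zinc and copper and are induced by metals, glucocorticoids and oxidants, were far higher in high dose. Their promoters carry metal response elements, which the zinc sensor MTF1 reads. The windows of Mt1 (plus strand, chr8:94178839-94179138) and Mt2 (plus strand, chr8:94172368-94172667) are printed to show them, again from RefSeq (GRCm38.p6). Capitals mark TGCACNC or TGCGCNC on either strand, of which Mt1 held 3 and Mt2 held 4.
Mt1: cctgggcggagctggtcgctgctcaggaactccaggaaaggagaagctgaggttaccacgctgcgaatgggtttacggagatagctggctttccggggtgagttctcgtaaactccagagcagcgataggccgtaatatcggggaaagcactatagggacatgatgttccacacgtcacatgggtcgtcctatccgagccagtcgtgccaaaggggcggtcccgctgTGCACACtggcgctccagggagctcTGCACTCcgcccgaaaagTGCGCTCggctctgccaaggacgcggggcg
Mt2: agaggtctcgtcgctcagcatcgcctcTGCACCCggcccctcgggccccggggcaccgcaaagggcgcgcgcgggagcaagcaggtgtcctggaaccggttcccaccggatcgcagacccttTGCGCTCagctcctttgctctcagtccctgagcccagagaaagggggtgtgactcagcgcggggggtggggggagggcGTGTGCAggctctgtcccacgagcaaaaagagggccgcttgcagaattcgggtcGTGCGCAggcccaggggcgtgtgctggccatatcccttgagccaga
The same letters occurred in 25.7% of all 32851 windows, and once in that of Mt3.

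Mt1 was at 235, 195 and 273 FPKM in model and 968, 2574 and 2151 in high dose, and at 558, 459.6 and 325 in control. The high dose mean was 8.09-fold the model mean, with a log2 difference of 2.91 ± 0.45 (limma adjusted p = 0.1402). Mt2 was at 181, 72.9 and 152 FPKM in model and 478, 2520.4 and 1486 in high dose (3.25 ± 0.68). In both genes, high dose 1 was the lowest of the treated libraries and still above every model library. Mt3, the form best known from neurons, was at 0.264, 0.327 and 0.495 FPKM in model, 53.9, 114 and 12.3 in high dose and 33.8, 33.1 and 4.29 in control (5.01 ± 0.73). Mt3 passed the filter through its high dose values alone and was lowest in high dose 3, the treated library with the lowest neuron markers; the part of neurons in this result was not tested. Mtf1 itself was lower, at 3.42, 3.001 and 3.39 FPKM in model and 1.82, 1.81 and 1.45 in high dose. Of 10 metallothionein and zinc genes tested, 3 were higher without overlap (30.0%, against 11.0% of all genes), namely Mt1, Mt2 and Mt3. Only 1, Mtf1, was lower, a share under the 11.5% of all genes, and the median of the list was 0.21.

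Targets of the glucocorticoid receptor were mixed in direction, with a median of 0.39. Of 27 tested, 8 were higher (29.6%, against 11.0% of all genes) and 4 lower (14.8%, against 11.5%). Mt1, Mt2 and Per1 belong to this list too. Ddit4, a stress-induced inhibitor of mTORC1, was at 15.8, 21.2 and 18.97 FPKM in model and 85.6, 139 and 80.3 in high dose (2.35 ± 0.28, limma adjusted p = 0.134). Klf15, a transcription factor of nutrient use in muscle and fat, was at 3.71, 5.28 and 7.46 FPKM in model and 13.2, 17.4 and 14.4 in high dose. Nfkbia, the inhibitor of NF-kappa B, was at 48.7, 56.2 and 50.7 FPKM in model and 106, 117 and 157 in high dose. These 3 genes separated the groups by wide margins. Fam107a was at 4.03, 3.29 and 5.83 FPKM in model and 11.7, 9.64 and 9.02 in high dose, and Slc10a6 at 2.36, 5.597 and 8.56 and 10.2, 12.7 and 24.2. Several classical members were lower. Dusp1, a phosphatase of stress kinases, was at 136, 207 and 146 FPKM in model and 51.1, 109 and 96.3 in high dose, and Sgk1 at 91., 86.8 and 92.96 and 51.2, 33.6 and 85.1. Nr3c1, the receptor itself, was at 15.5, 20.5 and 16.9 FPKM in model and 8.52, 7.503 and 13.04 in high dose. Tsc22d3, the target best known as GILZ, overlapped between groups, at 25.7, 42.4 and 34.8 and 40.96, 36.8 and 57.9 FPKM. So did Klf9, at 22.3, 24.4 and 26.9 and 39.1, 22.6 and 20.7.

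Genes of cell division were lower in high dose, in a larger share than in any other pathway list. Of 35 listed genes 30 were tested, and 21 of these (70.0%, against 11.5% of all genes) lay wholly under the model range, with none above it and a median of -0.85. Genes of the G2 and M phases share a promoter design of CCAAT boxes and a cell cycle homology region, shown here for Top2a (minus strand, chr11:99024140-99024439) and Cdk1 (minus strand, chr10:69352863-69353162). Capitals mark CCAAT and TTTGAA on either strand, in RefSeq windows of GRCm38.p6.
Top2a: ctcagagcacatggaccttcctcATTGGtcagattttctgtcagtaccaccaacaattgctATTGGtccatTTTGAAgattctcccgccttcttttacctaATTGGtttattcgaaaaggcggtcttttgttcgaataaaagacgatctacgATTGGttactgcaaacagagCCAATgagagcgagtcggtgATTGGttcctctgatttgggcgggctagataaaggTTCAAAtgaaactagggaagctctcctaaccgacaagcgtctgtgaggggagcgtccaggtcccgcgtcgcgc
Cdk1: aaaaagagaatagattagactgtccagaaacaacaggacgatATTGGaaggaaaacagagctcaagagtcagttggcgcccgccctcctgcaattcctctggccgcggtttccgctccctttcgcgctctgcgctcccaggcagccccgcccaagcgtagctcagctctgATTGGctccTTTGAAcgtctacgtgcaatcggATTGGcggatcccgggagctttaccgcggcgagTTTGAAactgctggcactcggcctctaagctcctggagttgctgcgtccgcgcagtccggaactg
Of the 21 lower genes 17 had a window: 15 (88.2%) held CCAAT and 10 (58.8%) held TTTGAA, letters found in 37.4% and 17.9% of all windows.

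Levels were mostly low, and the gap between the groups ranged from wide, as in Top2a, to narrow, as in Rrm2 and Pcna below. Top2a, the topoisomerase that untangles replicated chromosomes, was at 4.49, 4.24 and 3.63 FPKM in model and 1.43, 0.962 and 1.31 in high dose (-1.20 ± 0.20, limma adjusted p = 0.142). Mki67, the proliferation marker Ki-67, was at 5.28, 6.21 and 3.97 FPKM in model and 1.87, 2.01 and 1.88 in high dose. Cdk1, the kinase that starts mitosis, was at 2.68, 3.17 and 2.35 FPKM in model and 0.30, 0.772 and 1.36 in high dose. In these 3 genes each model value was over 1.5 times each high dose value. Kif23, a kinesin of cell separation, was at 3.17, 4.19 and 2.52 FPKM in model and 0.422, 0.317 and 1.02 in high dose. Among mitotic kinases, Aurkb was at 3.198, 2.13 and 2.82 FPKM in model and 0.789, 0.824 and 0.897 in high dose, and Plk1 at 3.59, 2.75 and 3.37 and 0.692, 1.37 and 2.34. Ube2c, an enzyme of cyclin breakdown, was at 23.03, 14.3 and 11.7 FPKM in model and 1.91, 3.48 and 7.08 in high dose.

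Genes of DNA synthesis were among the lower ones too. Mcm6, a subunit of the replicative helicase, was at 8.696, 6.89 and 5.89 FPKM in model and 4.19, 2.77 and 4.09 in high dose. Rrm2, which makes deoxynucleotides, was at 2.97, 5.32 and 4.28 FPKM in model and 1.29, 2.88 and 0.926 in high dose. Pcna, the sliding clamp, was at 64.02, 50.6 and 45.7 FPKM in model and 39.9, 20.5 and 43.1 in high dose, with high dose 3 just under the lowest model library. Among the 9 tested genes that did not separate, the D cyclin Ccnd1 was at 16.2, 20.4 and 10.2 FPKM in model and 22.2, 20.4 and 15.1 in high dose. Stmn1, which neurons also express, was at 31.9, 26.4 and 21.5 and 152, 70.9 and 18.8. Control was not uniform, since Top2a stood at 0.309, 5.62 and 0.515 FPKM and control 2 matched the model level. With only genes of at least 5 FPKM on average, 3 lower cell cycle genes were left, because few reach that level. Ccna2, Prc1, Nusap1, Ube2c and Kif20a overlap exons of genes on the opposite strand (Exosc9, Rccd1, Oip5, Tnnc2 and Cdc23). Macrophage markers, which dividing plaque cells can carry, averaged 6.61, 5.76 and 4.93 on the log2(FPKM + 1) scale in model and 3.90, 4.33 and 6.13 in high dose, so they overlapped where the cell cycle genes did not; their part was not tested.

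**Figure D5:**
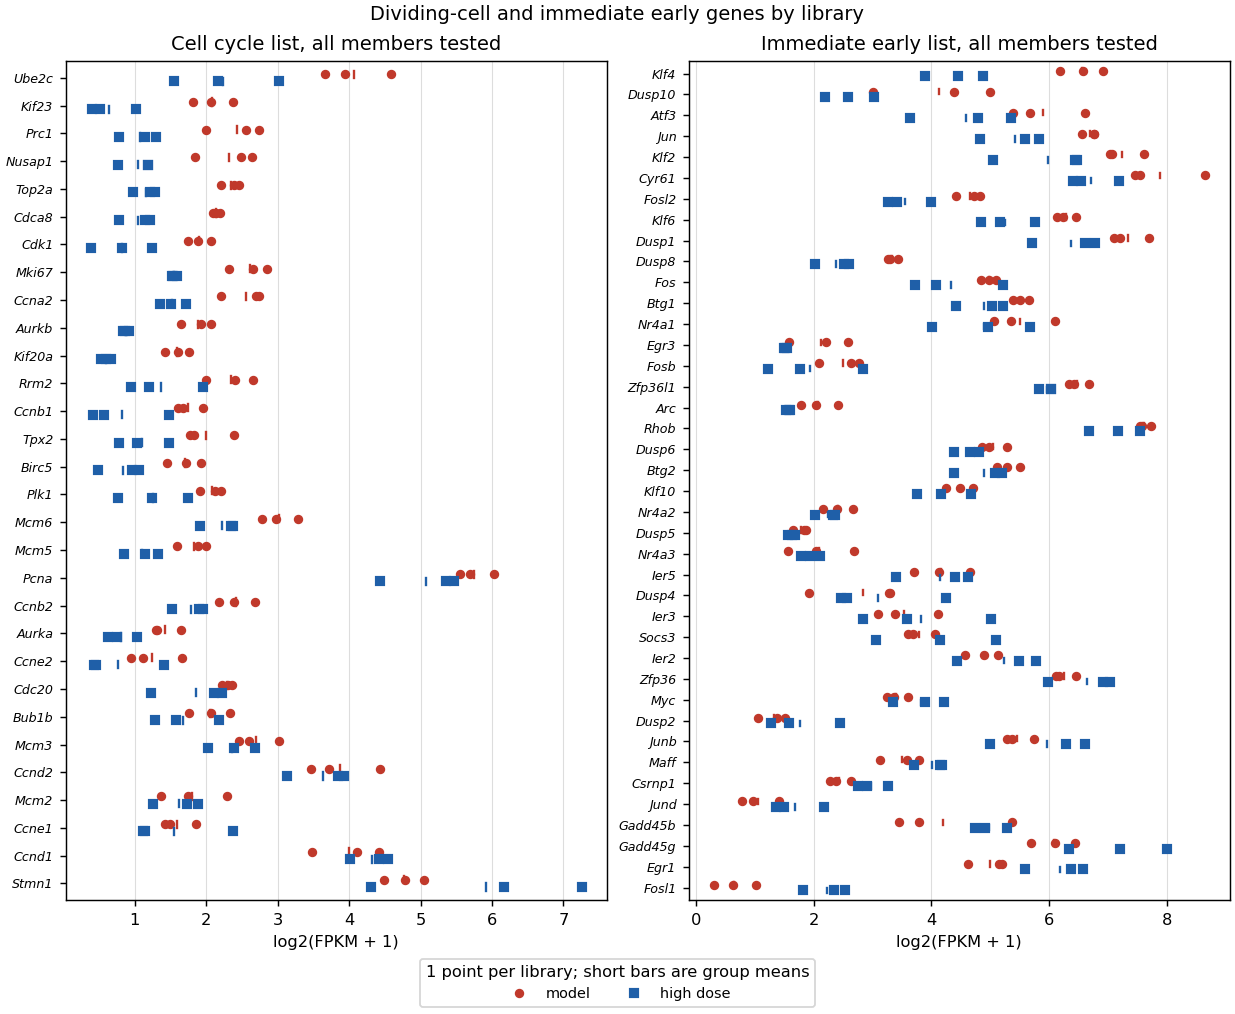
Log2(FPKM + 1) of all tested cell cycle genes (left) and immediate early genes (right), ordered by difference, 1 point per library; short bars mark group means. In 21 of 30 cell cycle rows the 3 squares lie to the left of all circles, and in the immediate early rows 15 of 40 do and 3 lie wholly to the right.

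Immediate early genes, which respond within minutes to growth factors, flow or handling, separated the groups in 18 of 40 tested. Of these, 15 were lower (37.5% of those tested, against 11.5% of all genes) and 3 higher (7.50%, against 11.0%), and the median of the list was -0.35. Klf4 had the smallest p of the list. Klf4, which keeps endothelium quiescent and drives smooth muscle cells out of the contractile state, was at 71.7, 120.1 and 93.9 FPKM in model and 13.8, 20.9 and 28.4 in high dose (-2.15 ± 0.33, limma adjusted p = 0.1398). Klf2, the flow-induced factor of endothelium, was at 129, 193 and 133 FPKM in model and 32., 85.4 and 87.3 in high dose, and Klf6 at 74.3, 86.9 and 69.5 and 34.8, 27.6 and 53.1. Control values of Klf4, 48.3, 49.4 and 49.3 FPKM, lay between the groups. Jun, a subunit of AP-1, was at 108, 93.1 and 108 FPKM in model and 27.4, 55.7 and 46.9 in high dose. Its partner Fosl2 was at 25.5, 20.3 and 27.4 FPKM in model and 9.63, 8.65 and 14.9 in high dose. Fos did not separate, at 30.6, 33.1 and 27.6 and 12.2, 15.9 and 35.98 FPKM.

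The 3 higher immediate early genes were Fosl1, Egr1 and Csrnp1. Fosl1 was at 1.03, 0.5496 and 0.234 FPKM in model and 2.55, 4.09 and 4.78 in high dose, and its exons overlap Ccdc85b on the other strand. Egr1, a factor induced by injury and stretch, was at 34.5, 23.6 and 35.6 FPKM in model and 46.97, 81.5 and 94.3 in high dose, and at 252, 117 and 38.2 in control. Csrnp1 was at 3.87, 4.196 and 5.18 FPKM in model and 5.72, 8.62 and 6.501 in high dose. AP-1 and Egr genes thus lay on both sides of the model range, since Egr3 was lower, at 3.61, 1.99 and 5.03 and 1.85, 1.81 and 1.93 FPKM.

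In the fibroblast and collagen list, 12 of 26 tested genes (46.2%, against 11.5% of all genes) were lower and none higher without overlap, with a median of -0.95. Fn1, fibronectin, laid down early in plaque, is not on this list but on the elastic fibre and modulated smooth muscle lists. It was at 533, 325 and 198 FPKM in model and 14.3, 24.9 and 143 in high dose (-3.08 ± 0.85). Postn, periostin, was at 451, 175 and 162 FPKM in model and 26.7, 33.6 and 125 in high dose. Col6a3, a chain of collagen VI, was at 40.2, 15.4 and 19.9 FPKM in model and 1.91, 6.7 and 9.83 in high dose, and Col18a1, of the basement membrane, was at 115, 44.1 and 40.3 and 9.53, 18.5 and 24.1. In these 4 genes model 1 was the highest and high dose 1 the lowest of the 6 libraries. Plod1, which hydroxylates collagen lysines, gave the tightest values: 10.2, 13.5 and 13.3 FPKM in model and 6.22, 6.06 and 6.65 in high dose. Col8a1, a collagen that smooth muscle cells lay down after injury, was at 24.3, 5.696 and 9.63 FPKM in model, 2.003, 2.17 and 4.19 in high dose and 2.89, 2.34 and 5.21 in control. Without high dose 3 the lower genes of this list numbered 20.

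The fibrillar collagens were among those that did not separate. Col1a1 was at 499, 101 and 153 FPKM in model and 11.2, 54.3 and 330.4 in high dose, and Col3a1 at 441, 176 and 191 and 13.7, 54.97 and 488. Elastin, Eln, was at 537, 111 and 126 FPKM in model and 33.2, 129 and 175 in high dose. These genes, like others named as not separating or as overlapping, were chosen after their values were seen. Of 33 elastic fibre and matricellular genes, 1 was higher and 3 lower, shares under those of all genes. The higher gene was Thbs4, thrombospondin 4, at 0.163, 0.585 and 3.41 FPKM in model and 4.996, 8.19 and 6.68 in high dose. Mmp13, a collagenase, was at 8.48, 4.64 and 31.7 FPKM in model and 0.0458, 0.516 and 4.403 in high dose. Adamts15, a protease of proteoglycans, was at 3.96, 2.28 and 3.07 FPKM in model and 4.58, 9.82 and 16.1 in high dose.

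Of 39 contractile smooth muscle genes tested, 8 were lower (20.5%, against 11.5% of all genes) and 1 higher (2.56%, against 11.0%), with a median of -0.77. Acta2 and Myh11, the defining contractile proteins, both overlapped: Myh11 was at 449, 171 and 184 FPKM in model and 49.2, 301 and 101 in high dose. High dose 1 was the lowest and model 1 the highest in both. The separated genes included Itga8, the integrin alpha 8 chain, at 175, 67.4 and 46.4 FPKM in model and 4.06, 15.9 and 25.7 in high dose. Aoc3, an amine oxidase of smooth muscle and fat, was at 60.8, 84.7 and 107 FPKM in model and 33.5, 25.3 and 29.3 in high dose. Kcnab1, a potassium channel subunit, was at 19.5, 8.36 and 9.16 FPKM in model and 2.26, 2.48 and 3.69 in high dose. Over the 39 genes the mean of log2(FPKM + 1) was 6.13, 5.32 and 5.47 in model and 4.24, 6.21 and 5.58 in high dose. Without high dose 2, the highest of the 6 libraries by this mean, the lower genes numbered 21. Of 21 genes of modulated smooth muscle and cartilage-like cells, 5 were lower (23.8%, against 11.5% of all genes) and none higher. Bmp2, a ligand that drives calcification, was at 3.61, 3.78 and 4.48 FPKM in model and 0.825, 2.19 and 1.25 in high dose. Tnfrsf11b, osteoprotegerin, was at 49.6, 7.59 and 4.42 FPKM in model and 0.239, 0.441 and 3.46 in high dose.

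Of 35 endothelial genes tested, 9 were lower (25.7%, against 11.5% of all genes) and 2 higher (5.71%, against 11.0%), with a median of -0.51. Ptprb, a phosphatase that restrains the receptor Tie2, was at 25.2, 31.4 and 31.9 FPKM in model and 14.6, 10.1 and 15.1 in high dose. Sox17, a factor of arterial identity, was at 14.9, 17.8 and 15.9 FPKM in model and 5.85, 6.15 and 10.4 in high dose, and its relative Sox18 was at 52.1, 43.3 and 52.7 and 27.8, 29.8 and 30.2. Cdh5, the junction protein VE-cadherin, was at 91.6, 129 and 137 FPKM in model and 86.2, 32.4 and 56.4 in high dose. Pecam1 did not separate, at 187, 149 and 175 and 118, 119 and 198 FPKM, so the markers of this cell type did not all separate. The higher genes were Ackr1 and Prox1. Ackr1, the chemokine-binding receptor of venules, was at 4.54, 1.62 and 8.17 FPKM in model and 28.1, 11.4 and 8.49 in high dose. Prox1, the factor of lymphatic endothelium, was at 0.0503, 0.484 and 1.31 and 1.498, 1.39 and 4.53. Without high dose 3 the lower endothelial genes numbered 22, and without model 1 they numbered 16.

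Vessel tone and clotting genes were split. Besides Agt, Bdkrb2, the bradykinin B2 receptor, was higher, at 0.644, 0.943 and 0.816 FPKM in model and 5.24, 2.61 and 1.27 in high dose. Npr1, the receptor of natriuretic peptides, was lower, at 55.9, 57.3 and 47.8 FPKM in model and 36.9, 28.4 and 37.7 in high dose. Htr1b, a serotonin receptor of arteries, was at 5.87, 1.82 and 2.07 FPKM in model and 0.0528, 0.178 and 0.05797 in high dose, lower by 1.83 on the log2 scale. The vasoactive list gave 3 higher and 2 lower of 33, shares under those of all genes. In coagulation and fibrinolysis, 1 gene was higher (4.35%) and 5 lower (21.7%) of 23, against 11.0% and 11.5% of all genes. F3, tissue factor, which starts clotting, was the higher gene, at 24.7, 20.1 and 33.2 FPKM in model and 77.01, 143 and 43.9 in high dose. Gp9 and Itga2b, parts of platelet receptors, were lower: Gp9 at 3.75, 3.48 and 3.35 and 0.7499, 0.472 and 1.21 FPKM, and Itga2b at 8.26, 9.25 and 6.801 and 5.6, 2.99 and 5.95. Red cell genes were lower too, 14 of 25 tested without overlap (56.0%, against 11.5% of all genes). The part of blood left in the tissue in the platelet genes was not tested.

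Macrophage genes leaned lower without separating the groups. Of 22 general macrophage genes tested, 21 had a lower mean in high dose and the median was -0.99. Yet only Adgre1 (F4/80) was without overlap, and lower (4.55%, against 11.5% of all genes). It was at 12.4, 27.8 and 7.797 FPKM in model and 1.85, 2.65 and 6.96 in high dose. Cd68, a lysosomal marker of macrophages, was at 396, 67.5 and 64.2 FPKM in model and 19.02, 34.7 and 144 in high dose. High dose 3 lay above model 2 and model 3, and model 1 was far above all others. Trem2, the receptor of lipid-associated macrophages, was at 159.7, 17.6 and 23.3 FPKM in model and 3.96, 11.4 and 71.8 in high dose. Its log2 difference was -1.34 ± 1.18 (limma adjusted p = 0.614), and it turned positive, 0.14, with array weights. Among foam cell genes, 24 tested, only Apoc4, an apolipoprotein gene beside Apoe, was without overlap. It was higher (4.17%, against 11.0% of all genes), at 0.6397, 0.452 and 1.03 FPKM in model and 2.603, 5.19 and 3.12 in high dose. Of 18 genes of resident macrophages of the outer wall, 3 were lower (16.7%, against 11.5% of all genes). Retnla, a product of alternatively activated macrophages, was at 30.6, 96.9 and 67.04 FPKM in model and 15.4, 24.5 and 15.98 in high dose.

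Neutrophil genes went the other way. Of 20 listed genes 15 were tested, and 7 of these (46.7%, against 11.0% of all genes) were higher and none lower without overlap, with a median of 0.98. Retnlg was at 3.35, 6.94 and 3.396 FPKM in model and 20.2, 50.7 and 31.4 in high dose (2.62 ± 0.40). Cxcr2, the receptor that draws neutrophils to chemokines, was at 0.576, 1.29 and 0.661 FPKM in model and 3.49, 1.37 and 3.34 in high dose. S100a8 and S100a9, the 2 chains of calprotectin, were at 12.7, 36.9 and 39.2 and 12.5, 44.4 and 55.3 FPKM in model and at 74.9, 453 and 82.6 and 108, 410.5 and 62.9 in high dose. The granule genes Ngp and Ltf were highest in high dose 2, at 24.7, 89.7 and 1.45 and 5.03, 135 and 1.79 FPKM over the 3 treated libraries, the library with the airway and skeletal muscle genes; Ltf is itself on the airway list. Retnlg, in contrast, was high in all 3. Vpreb3, a gene of B cell precursors, was also higher, at 0, 0.873 and 1.21 FPKM in model and 5.28, 32.3 and 5.91 in high dose. Of 9 T and NK cell genes tested, 4 had a higher and 5 a lower mean, and the median was -0.06. Only the granzymes Gzma and Gzmb were without overlap, both lower (22.2%, against 11.5% of all genes). Gzma was at 4.097, 6.003 and 3.56 FPKM in model and 1.19, 1.41 and 1.53 in high dose.

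Chemokine and interferon genes lay on both sides. Cxcl9, a chemokine induced by interferon gamma, was at 11.7, 18.8 and 17.8 FPKM in model and 5.19, 1.61 and 1.71 in high dose (-2.25 ± 0.39). Its neighbour on chromosome 5, Cxcl10, which type I interferon also induces, was at 5.12, 2.66 and 2.66 FPKM in model and 16.4, 10.6 and 10.9 in high dose (1.63 ± 0.30). The groups thus separated in opposite directions for 2 ligands of 1 receptor. Gbp2, a guanylate-binding protein, was lower, at 30.8, 40.5 and 45.03 FPKM in model and 17.3, 15.5 and 14.1 in high dose. Ifit1 was higher, at 3.36, 5.73 and 4.49 FPKM in model and 11.4, 11.3 and 12.2 in high dose, and Oasl1 was at 1.67, 1.84 and 1.12 and 4.09, 4.51 and 4.99. The interferon list gave 4 higher and 2 lower of 29, near the share of all genes. The inflammatory list gave 3 higher (8.33%) and 1 lower (2.78%) of 36, against 11.0% and 11.5% of all genes. Ccl2, which recruits monocytes, overlapped at 21.3, 7.19 and 7.35 and 14.4, 7.45 and 41.8 FPKM, and Vcam1, which tethers them, at 143, 18.2 and 23.7 and 13.8, 13.2 and 86.6.

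Lipid genes, which the series title names as a subject of the study, were little separated. Srebf1, the transcription factor SREBP-1 that drives fatty acid synthesis, was at 25.9, 36.3 and 40.5 FPKM in model, 142, 84.99 and 101 in high dose and 12.4, 21.9 and 40.9 in control (1.64 ± 0.29, limma adjusted p = 0.149). It shares exon sequence with Rai1 on the other strand, which was at 2.96, 2.83 and 2.698 FPKM in model and 4.49, 5.18 and 3.83 in high dose. Of 25 genes of fatty acid and triglyceride synthesis 3 were higher (12.0%, against 11.0% of all genes) and none lower. Fasn overlapped, at 154, 485 and 518 and 248, 83.7 and 127 FPKM. It was highest in model 2 and 3, as were the summed white adipocyte markers, and the part of fat was not tested. Of 26 genes of cholesterol synthesis and uptake 3 were higher (11.5%, against 11.0%), with a median of 0.64. Msmo1, a sterol demethylating oxidase, was at 7.92, 8.86 and 6.499 FPKM in model and 49.6, 18.8 and 15.5 in high dose, and Sqle, squalene epoxidase, at 1.34, 2.43 and 2.81 and 42.7, 6.53 and 3.36. High dose 1, the library with the most nerve and catecholamine cell RNA, was the highest in both; the part of those cells was not tested.

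Among genes of lipid efflux and burning, Abca1, the cholesterol exporter, was at 78.1, 35.5 and 39.9 FPKM in model and 44.8, 19.4 and 51.9 in high dose. Its difference of -0.42 ± 0.46 turned to 0.00375 without high dose 2. Npc2, which moves cholesterol out of lysosomes, was lower, at 180.5, 148 and 155 FPKM in model and 85.03, 44.5 and 91.7 in high dose. Cpt1a, the gate of mitochondrial fat oxidation, overlapped, at 32.2, 19.7 and 19.3 and 39.8, 23.1 and 17.2 FPKM. Pdk4, which spares glucose when fat is burnt, was lower, at 134, 410.0 and 615 FPKM in model and 49.5, 100.1 and 82.7 in high dose (-2.11 ± 0.60). The fatty acid oxidation list had a median of -0.68 with 1 higher and 1 lower gene of 36 (2.78% each, against 11.0% and 11.5% of all genes). Pdk4, the mean of this list and the summed white adipocyte markers were all highest in model 2 and 3. The part of white fat in these results was not tested. The brown fat marker Ucp1 was at 308, 1146 and 927 FPKM in model and 2281, 341 and 698 in high dose. Cyp2b10, a target of the xenobiotic receptor CAR, was at 0.907, 1.62 and 7.66 FPKM in model and 65.5, 14.6 and 11.3 in high dose. It is also a marker on the brown adipocyte list, and high dose 1 was the highest of the 6 libraries for it and for Ucp1; the part of brown fat was not tested. Por, the electron donor of cytochromes P450, was at 49.0, 62.6 and 68.7 FPKM in model and 105, 203 and 89.8 in high dose. Cyp2b10 and Por were the 2 higher of 27 xenobiotic receptor targets (7.41%, against 11.0% of all genes).

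Genes that make or remove oxidants, the other subject in the series title, were mixed. Of 16 oxidant sources tested, 3 were lower (18.8%, against 11.5% of all genes) and none higher. Nox4, the NADPH oxidase of smooth muscle and fibroblasts, was at 54.5, 18.9 and 22.8 FPKM in model and 3.17, 5.32 and 16.1 in high dose (-1.95 ± 0.61). Nos2, the inducible nitric oxide synthase, was at 5.19, 6.03 and 5.79 FPKM in model and 2.85, 1.43 and 3.16 in high dose. Noxo1, an activator of NOX1, was at 3.64, 3.65 and 3.57 FPKM in model and 0.877, 2.48 and 0.5601 in high dose, with exons over those of Tbl3. Cybb, the oxidase of phagocytes, overlapped, at 31.7, 28.6 and 8.11 and 5.26, 4.38 and 16.7 FPKM.

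Of 42 antioxidant genes and targets of the factor NRF2, 4 were higher (9.52%) and 4 lower (9.52%), near the shares of all genes, and the median was -0.03. Gclc, the rate-limiting enzyme of glutathione synthesis, was the clearest higher gene, at 11.6, 12.8 and 11.9 FPKM in model and 45.7, 44.9 and 21.9 in high dose (1.48 ± 0.31). Nfe2l2, which encodes NRF2, was lower, at 49.5, 49.6 and 38.3 FPKM in model and 16.5, 27.2 and 31.9 in high dose. Gpx1, the main glutathione peroxidase, was lower too, at 897, 902 and 784 FPKM in model and 590.0, 336 and 504 in high dose. The classical target Nqo1 overlapped by a small margin, at 6.83, 4.75 and 4.55 and 6.79, 34.6 and 11.2 FPKM. Hmox1, which breaks down haem, overlapped fully, at 99.1, 41.1 and 26.8 and 28.98, 43.2 and 72.9, and its difference changed sign when model 1 or high dose 1 was left out. Sod2, the mitochondrial superoxide dismutase, was at 37.3, 92.7 and 109.8 FPKM in model and 82.9, 48.04 and 72.5 in high dose. In all, 12 genes of plaque, lipid and oxidant biology are named here whatever their values, from Cd68 and Acta2 to Vcam1 and Sod2, and none of them was without overlap.

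Stress response genes were also split. Cirbp, an RNA-binding protein induced by cold, was at 29.1, 22.02 and 22.2 FPKM in model and 66.8, 88. and 85.1 in high dose (1.67 ± 0.22, limma adjusted p = 0.134). The chaperone Hspb8 and its partner Bag3, which clear damaged filaments, were higher: Hspb8 at 46.9, 63.8 and 52.4 and 135, 193 and 146 FPKM, and Bag3 at 41.3, 57.8 and 38.96 and 67.04, 100.4 and 66.1. Of the 25 tested genes of this heat shock and cold list, 3 were higher and 3 lower (12.0% each), near the shares of all genes. Among its lower genes were the chaperones Dnajb1, at 27.2, 50.03 and 27.8 FPKM in model and 13.03, 8.32 and 9.18 in high dose, and Hsph1, at 35.6, 66.7 and 23.9 and 20.8, 16.05 and 11.1. In control, Dnajb1 was at 13.8, 15.2 and 12.8 FPKM and Cirbp at 69.6, 68.4 and 38.8. Of 44 genes of endoplasmic reticulum and amino acid stress, 8 were higher (18.2%, against 11.0% of all genes) and 5 lower (11.4%, against 11.5%), with a median of 0.05. The higher genes included targets of ATF4, the factor induced by amino acid shortage. The lower genes were Atf6, Cebpg, Edem1, Pdia6 and Sesn2, so amino acid stress genes lay on both sides. Chac1, which degrades glutathione, was at 1.24, 0.635 and 1.15 FPKM in model and 5.51, 7.69 and 3.73 in high dose. Psat1, of serine synthesis, was at 4.35, 5.13 and 3.18 FPKM in model and 14.1, 12.2 and 6.19 in high dose, and the amino acid carrier Slc7a5 was at 3.84, 1.58 and 1.16 and 11.8, 7.03 and 4.39. Edem1, which sends misfolded proteins to degradation, was lower, at 23.4, 17.04 and 16.01 FPKM in model and 9.17, 5.82 and 11.1 in high dose. Without model 1 the higher genes of this list numbered 13.

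Of 27 autophagy genes tested, 4 were higher (14.8%) and 3 lower (11.1%), near the 11.0% and 11.5% of all genes. Pink1, the kinase that tags damaged mitochondria, was at 76.4, 88.4 and 102 FPKM in model and 121, 249 and 166 in high dose. Sqstm1, the adaptor p62, was at 187, 150.0 and 169 FPKM in model and 321, 286 and 207 in high dose. Bnip3l, a mitophagy receptor that is also on the red cell list, was lower, at 92.7, 65.7 and 53.5 FPKM in model and 46.3, 37.6 and 42.4 in high dose. Among lysosomal genes Gaa, acid glucosidase, was higher, at 31.8, 26.8 and 29.2 FPKM in model and 81.3, 48.6 and 38.5 in high dose, and Glb1, a galactosidase, was lower, at 24.4, 15.4 and 12.3 and 7.197, 7.46 and 11.8. The cytosolic ribosome list gave 3 higher (9.68%) and 1 lower (3.23%) of 31 tested, shares under those of all genes; the lower gene was the elongation factor Eef1a1.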

How the data were processed

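Gene expression was measured by sequencing of messenger RNA from the aortic arch, in 3 model and 3 high dose libraries, with 3 control libraries shown beside them. The authors deposited 1 table of FPKM values, in which a gene that takes much of a library lowers the rest. The genome builds GRCm38.p5 and mm10 are named in the submitters' processing notes, while the aligner, counter, gene models and strand setting are not given there. Sample titles gave the groups, and columns were matched to them by name: AS as model, HD as high dose. The table holds no counts, so depth could be had only as a ratio between libraries and no counting interval was computed. Its 27 date-like gene names were left unnamed.

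Values were taken as log2(FPKM + 1) for genes with 1 FPKM in 3 of the 6 libraries. The test was limma 3.58.1 (R 4.3.3; empirical Bayes with a trend, Benjamini-Hochberg over 12105 genes, two-sided), and the procedure was tested on simulated data. The members and the lists (15 of neighbouring tissues, 43 of pathways) were chosen with earlier results of these data known. Named genes were Apoe; per direction the 15 of smallest p without overlap, if the higher group averaged 2 FPKM or more and both groups had a range of at most 1.5, off the neighbouring-tissue lists and not clones or predicted genes; up to 2 per pathway list; and 12 genes whatever their values. Other genes were chosen after their values were seen. Some genes are not reported here, while the list counts keep them. Ccn1 to Ccn5 were dropped from the lists because their names are also older names of other genes. Alternatives changed the pseudocount (0.1), the filter (none, or 5 FPKM on average), the scaling (3 ways), the libraries in the fit (all 9, or each left out), the empirical Bayes step (robust), array weights, the replicate block and the size asked for (a log2 difference of 1). Positions came from GENCODE M21 (GRCm38), where 247 of 248 names looked up were found once, and promoters from RefSeq (GRCm38.p6). Figures were drawn with matplotlib 3.10.9.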

Additional observations from a re-analysis of the deposited data

How the results depend on the processing

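Direction was stable for most genes named: of 1592 values of 108 named genes under the alternatives, 14 in 7 genes changed sign, none of them among the 30 leading genes. With array weights the differences of Trem2, Abca1, Hmox1 and Vcam1 turned to 0.14, 0.00444, 0.43 and 0.65. With 1 library left out, Abca1 ran from -0.69 to 0.00375 (high dose 2 left out), Cpt1a from -0.20 (high dose 1; -0.00108 without model 3) to 0.38, and Hmox1 from -0.50 to 0.43 (model 1; 0.22 without high dose 1). Sod2 ran from -0.60 to 0.16 (model 3; 0.0432 without model 2, 0.0948 without high dose 2), Ccl2 from -0.0105 (high dose 3) to 1.16, and Vcam1 from -1.49 to 0.28 (model 1). Genes without overlap numbered 658 with a log2 difference of at least 1 (406 higher, 252 lower), against 2718. Without the filter 1997 were higher, and under the filter on a mean of 5 FPKM 905 were lower. Of the 2718 genes, 93.4% stayed without overlap in the same direction under median-ratio rescaling, 91.7% under quantile normalization and 90.5% when libraries were rescaled outside the neighbouring-tissue lists. Leaving out 1 library can only add genes: the total ran from 3158 to 4756, the higher from 1605 to 2246 and the lower from 1529 to 2510. By list, the ranges were 12 to 20 lower fibroblast genes, 8 to 21 contractile, 9 to 22 endothelial, 8 to 13 higher stress genes and 26 to 57 higher neuron genes, which numbered 72 without the filter and 45 with a mean of 5 FPKM, where 3 cell cycle genes were lower.

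The limma count was 0 without the filter (2026 at an unadjusted p under 0.05), with a mean of 5 FPKM (1141), with all 9 libraries (1626) and with the replicate block (1125). It was 12 with array weights and ran from 0 to 100 over the libraries left out. The replicate numbers did not pair the libraries: deviations of the same-numbered libraries correlated at -0.245, -0.162 and -0.25, and the 9 pairs ran from -0.25 to 0.273, so the block has no pairing behind it. FPKM keeps no counting error, so low genes, the cell cycle genes among them, carry an unknown one.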
